A study of Mus musculus with 14 samples.

Results

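Centromere-proximal ATAC-seq peaks were taken as the consensus peaks on chromosomes 1 to 19 that start under 8 Mb. There were 2084 of them among the 57289 peaks of the series, and they were set against the 8856 autosomal peaks that start at 20 to 40 Mb. ATAC-seq cuts open chromatin with a transposase, so the counts in a peak measure accessibility. The cells were long-term haematopoietic stem cells (LT-HSCs) sorted from bone marrow of C57BL/6 mice as Lin- Sca1+ cKit+ CD34- Flt3-, in 14 bulk libraries. They comprised 5 libraries of aged cells given the RhoA inhibitor Rhosin at 100 µM (aged Ri), 5 of aged cells without it (aged, mice over 80 weeks old) and 4 of young cells without it (young, mice of 10 to 16 weeks). All 3 groups had spent 16 h in HBSS with 10% FBS and 1% P/S at 37 °C, 3% oxygen and 5% carbon dioxide before lysis in 0.15% NP-40, so no group represents cells straight from the marrow, and bulk libraries cannot tell fewer open cells from less accessibility per cell. The series design asks how accessibility in aged LT-HSCs compares with young ones, and with aged ones after RhoA inhibition.

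Mouse autosomes are acrocentric: the centromere lies at one end, and assembled sequence begins beside large blocks of satellite repeats. These repeats are packaged as pericentromeric heterochromatin, marked by trimethylated H3K9 and H4K20, and are held near the nuclear lamina or in chromocentres. RhoA is a small GTPase that controls actomyosin tension, which is passed on to the nucleus through the cytoskeleton and the nuclear envelope.

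Promoter sequences are shown for 5 genes on which the promoter results below turn, as the RefSeq sequence of GRCm38.p6 from 250 bases before to 50 after a gene's start, 5′ to 3′ on the gene's strand, each wholly inside a centromere-proximal peak. Pdk4 (chr6:5496229-5496528, minus strand) encodes a kinase that shuts off pyruvate dehydrogenase, Arhgef18 (chr8:3392758-3393057, plus) a guanine exchange factor for RhoA, Ezr (chr17:6782731-6783030, minus) the membrane-to-actin linker ezrin, Pold4 (chr19:4231643-4231942, plus) a small subunit of DNA polymerase delta, and Kmt5c (chr7:4739877-4740176, plus) a methyltransferase for H4K20 in pericentromeric heterochromatin. Capitals mark a match, on either strand, to 1 of 9 motifs: AP-1 TGANTCA, ETS CCGGAAG, RUNX TGTGGT, NRF1, YY1 AAGATGGCG, SP and KLF GGGGCGGGG, CRE TGACGTCA, E-box CACGTG and the letters AGATAAG of erythroid and stem-cell GATA factors. None contains another.
Pdk4: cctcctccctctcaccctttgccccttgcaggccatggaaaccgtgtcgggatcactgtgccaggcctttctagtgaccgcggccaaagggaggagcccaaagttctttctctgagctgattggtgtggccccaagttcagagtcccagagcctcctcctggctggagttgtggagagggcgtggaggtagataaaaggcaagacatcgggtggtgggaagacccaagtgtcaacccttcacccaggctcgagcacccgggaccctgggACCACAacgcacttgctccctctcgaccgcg
Arhgef18: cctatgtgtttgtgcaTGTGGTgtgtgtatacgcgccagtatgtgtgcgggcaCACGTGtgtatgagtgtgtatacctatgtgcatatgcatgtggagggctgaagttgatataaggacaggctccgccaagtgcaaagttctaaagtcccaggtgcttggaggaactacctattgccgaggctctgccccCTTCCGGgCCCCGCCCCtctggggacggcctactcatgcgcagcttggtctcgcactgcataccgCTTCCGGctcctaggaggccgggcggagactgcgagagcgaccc
Ezr: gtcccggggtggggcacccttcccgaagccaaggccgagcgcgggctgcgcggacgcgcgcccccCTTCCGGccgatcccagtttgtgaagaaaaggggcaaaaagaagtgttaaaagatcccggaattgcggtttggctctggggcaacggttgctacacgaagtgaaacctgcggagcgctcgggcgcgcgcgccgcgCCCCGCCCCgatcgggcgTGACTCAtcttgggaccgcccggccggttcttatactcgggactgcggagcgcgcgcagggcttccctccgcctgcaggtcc
Pold4: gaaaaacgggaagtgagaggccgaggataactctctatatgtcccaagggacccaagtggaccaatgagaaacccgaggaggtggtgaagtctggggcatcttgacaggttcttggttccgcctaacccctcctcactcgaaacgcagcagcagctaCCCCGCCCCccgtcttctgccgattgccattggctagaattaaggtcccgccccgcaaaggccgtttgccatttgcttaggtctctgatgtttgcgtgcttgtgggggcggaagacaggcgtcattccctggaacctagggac
Kmt5c: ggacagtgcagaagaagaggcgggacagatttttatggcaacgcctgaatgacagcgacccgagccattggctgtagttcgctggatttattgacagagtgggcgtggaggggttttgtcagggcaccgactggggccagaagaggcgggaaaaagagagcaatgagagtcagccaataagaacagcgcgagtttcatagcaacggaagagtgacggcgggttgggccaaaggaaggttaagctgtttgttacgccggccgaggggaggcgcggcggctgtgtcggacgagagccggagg

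Read by motif, the Pdk4 promoter held 1 RUNX match, Arhgef18 held 2 ETS, 1 RUNX, 1 SP and KLF and 1 E-box match, Ezr held 1 AP-1, 1 ETS and 1 SP and KLF match, Pold4 held 1 SP and KLF match, and Kmt5c held none. Over the 326 promoter sequences of 291 genes that lay wholly inside a centromere-proximal peak, ETS letters occurred in 22.4%, against 21.3% of 1230 such promoters at 20 to 40 Mb and 11.6% of all 21263 promoter sequences. SP and KLF letters occurred in 25.8%, against 21.1% and 15.4%. The E-box stood in 12.0%, against 9.5% and 7.8%, RUNX in 10.7%, against 12.3% and 15.0%, and NRF1 in 9.5%, against 10.5% and 6.4%. CRE was found in 5.5%, against 3.7% and 2.2%, AP-1 in 4.9%, against 4.2% and 7.0%, YY1 in 3.4%, against 3.4% and 1.8%, and GATA in 3.1%, against 1.1% and 2.6%. Their median GC content was 61.8%, against 61.3% at 20 to 40 Mb and 56.3% for all promoter sequences, so promoters inside peaks were GC-rich in both parts of the chromosomes.

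The peaks were spread unevenly over chromosomes, from 14 on chromosome 3 and 30 on chromosome 1 to 212 on chromosome 11 and 307 on chromosome 19. The earliest started at base 3000146 of chromosome 5, while chromosome 1 had no peak before 4351670. Of the 2084 peaks, 18.7% overlapped an annotated promoter, 11.1% another gene end within 1 kb, 35.8% the body of a gene and 34.4% lay between genes, counting protein-coding genes alone. The same classes made up 17.3%, 9.81%, 36.7% and 36.1% of the peaks at 20 to 40 Mb. Peaks with no gene within 50 kb were 14.1% of the centromere-proximal ones, against 11.6% at 20 to 40 Mb. The median peak had a mean count of 20, against 18.5 at 20 to 40 Mb.

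Totals per library ran from 1255878 to 3176246 counts in aged Ri, from 1153199 to 2705576 in aged and from 765533 to 2219775 in young libraries. The share of counts at gene ends over the whole genome was 35.9 to 46.8% in aged Ri, 38.8 to 49.6% in aged and 47.0 to 50.8% in young libraries. This share moved with age and cannot be told apart from it. Peaks at 7 of 9 stem-cell genes were summed as CPM, here counts scaled to a library's total without the adjustment used for later CPM. They gave 209 to 277 CPM in aged Ri, 239 to 269 in aged and 220 to 319 in young libraries (Gata2 and Slamf1 had none within 1 kb of their ends). Markers of other cells gave lower sums, listed for aged Ri, aged and young libraries in that order. B cell genes (1 of 4 with a peak, Cd79a, with Pax5 and Ms4a1 among those without) had 17.0 to 41.2, 22.9 to 42.5 and 39.0 to 78.4 CPM. T cell genes (1 of 4) had 0 to 10.5, 2.6 to 4.5 and 5.3 to 10.4 CPM, and myeloid genes (3 of 4) had 13.5 to 37.7, 18.7 to 31.9 and 19.5 to 22.5 CPM. Erythroid genes (3 of 4) had 31.9 to 63.6, 46.6 to 68.5 and 41.3 to 55.0 CPM, and endothelial and stromal genes (2 of 4) had 24.7 to 49.7, 38.7 to 45.8 and 17.0 to 41.8 CPM. Their part in the results below was not tested.

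The most accessible centromere-proximal peaks were mostly promoters of widely expressed genes, and none of those reported here was called in any comparison without the replicate number as a block. The rule for naming peaks took the 10 with the highest mean CPM. The 9 of them reported here were the promoters of Evi5l, Sf1 (a splicing factor), Kmt5c, Stip1 (a co-chaperone of HSP70 and HSP90), Fkbp2, Cnot3 (a subunit of the CCR4-NOT deadenylase), Mtrf1l and Zfp78, and the first peak of chromosome 9. With the block the chromosome 9 peak was called lower in aged Ri than in aged (adjusted p = 0.00107), and the Fkbp2 and Zfp78 promoters lower in aged than in young (adjusted p = 0.0358 and 0.0388). The Kmt5c promoter peak (chr7:4739605-4740304), which holds the sequence given above, had 171, 312, 237, 238 and 181 CPM in aged Ri libraries 1 to 5, 193, 205, 250.4, 307 and 232 CPM in aged libraries 1 to 5 and 203, 241, 273 and 205 CPM in young libraries 1 to 4. The 3 groups overlapped fully, with means of 228 ± 56.5, 238 ± 44.6 and 230.3 ± 33.2 CPM (SD, n = 5, 5 and 4, as for each mean below). The Evi5l promoter, at chr8:4165866-4166565, averaged 255 ± 68.4 CPM in aged Ri, 252 ± 57.2 CPM in aged and 236 ± 52.5 CPM in young libraries, again with overlapping groups.

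Aged against young LT-HSCs differed at 104 of the 2048 centromere-proximal peaks that passed the filter on low counts, 86 higher and 18 lower in aged cells. That is 5.08%, against a background of 5.72% over all 56235 peaks tested (4.45% higher and 1.26% lower) and 5.46% at 20 to 40 Mb (361 higher and 114 lower), so the share was near that of peaks elsewhere. By class, 38 of 730 peaks in gene bodies rose and 9 fell (5.21% and 1.23%, against 5.48% and 1.13% of all peaks of that class). Between genes 44 of 699 rose and 5 fell (6.29% and 0.715%, against 5.93% and 1.12%). At promoters 1 of 388 rose and 0 fell (0.258% and 0%, against 0.634% and 1.69%), and at other gene ends 3 of 231 rose and 4 fell (1.30% and 1.73%, against 1.78% and 1.56%). The replicate numbers do not pair young with aged libraries. A fit with them as a block left out aged 5, which has no young library of its number, all aged Ri libraries and the batch term. It turned the direction, with 65 higher and 101 lower of 1637 peaks (10.1%, against 10.1% of all peaks, 4.35% higher and 5.79% lower). In that fit 0 promoters rose and 65 of 374 fell (17.4%, against 18.5% of all promoters lower). Of 199 other gene ends 1 rose and 22 fell (0.503% and 11.1%, against 1.52% and 9.74% of all peaks of that class). The median log2 fold change was 0.13 in gene bodies, 0.10 between genes, -0.14 at gene ends and -0.23 at promoters, beside a median of 0.005 over all centromere-proximal peaks, -0.023 at 20 to 40 Mb and -0.008 over all peaks. Peaks that rose did so by a median of 2.42-fold (1.71 to 5.12), and those that fell did so by a median of 2.03-fold (1.67 to 3.82). With library-specific offsets against mean accessibility in place of one scaling factor, the split was 75 higher and 37 lower. When the gene-end share of each library was added to the model, 3 peaks were called (0.146%), all higher, and they were the peaks in Pfkp and Nsmaf and the one near Gstp2. Shares over all peaks with the offsets or the gene-end share are not given here, so these counts have no background beside them. Leaving out 1 library moved the count by over 1.5 times for 7 of the 9 libraries compared. Leaving out aged 1, 2, 3, 4 and 5 in turn gave 2.84, 2.94, 2.17, 6.35 and 8.29%. Leaving out young 1, 2, 3 and 4 gave 1.59, 3.503, 2.93 and 10.3%.

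Among the peaks that rose with age, one inside Pfkp (chr13:6642333-6643032), the platelet-type phosphofructokinase of glycolysis, kept its call under every alternative. It had 16.8, 17.6, 27.4, 26.7 and 11.6 CPM in aged libraries 1 to 5, against 4.0, 5.5, 4.26 and 5.32 CPM in young libraries 1 to 4. Every aged library stood above every young one, and the peak rose 3.91-fold (log2 fold change 1.97 ± 0.30, SE, edgeR adjusted p = 9.6e-05). A peak in the body of Nsmaf (chr4:6435934-6436633), an adaptor between the TNF receptor and neutral sphingomyelinase, had 50.5, 45.1, 48.9, 41.7 and 30.7 CPM in aged and 5.33, 12.4, 12.8 and 16.4 CPM in young libraries. These groups did not overlap either, at 3.7-fold (log2 1.89 ± 0.28, adjusted p = 7.39e-05). A peak 3519 bp from Gstp2 (chr19:4045740-4046439), which encodes a glutathione S-transferase of the pi class, averaged 27.8 ± 4.53 CPM in aged and 10.1 ± 2.07 CPM in young libraries and rose 2.78-fold (adjusted p = 0.000548). The calls in Nsmaf and near Gstp2 also held under every alternative that was run.

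A peak 6514 bp from Camk1d (chr2:5286244-5286943), a calcium- and calmodulin-dependent kinase, had 21.7, 14.1, 46.2, 26.7 and 20.04 CPM in aged and 7.55, 8.93, 4.26 and 5.8 CPM in young libraries, so it rose 3.59-fold without overlap (adjusted p = 0.000246, and 0.0555 with the gene-end share in the model). The largest called increase was at chr18:4813615-4814314, with no annotated protein-coding gene within 50 kb, where aged libraries had 38.5, 20.5, 30.8, 19.2 and 9.35 CPM and young ones 4.89, 4.12, 2.84 and 3.87 CPM (5.12-fold, adjusted p = 6.84e-05, 0.0663 with the gene-end share). Peg3, an imprinted zinc finger gene read from the paternal copy, held a peak (chr7:6728054-6728753) that averaged 31.4 ± 7.46 CPM in aged and 9.05 ± 3.02 CPM in young libraries (3.14-fold, adjusted p = 0.000577). Fam110b, whose product sits at the centrosome, had a gene-end peak of 20.8 ± 7.01 CPM in aged and 6.2 ± 0.405 CPM in young libraries (3.08-fold, adjusted p = 0.00087). A further increase lay 29201 bp from Bet1, a SNARE of transport from endoplasmic reticulum to Golgi, with 11.2, 12.9, 16.5, 14.4 and 4.45 CPM in aged and 2.66, 3.44, 0 and 1.93 CPM in young libraries (adjusted p = 0.000808). Dusp18, a dual-specificity phosphatase, had a peak 1576 bp away that rose 3.2-fold (adjusted p = 0.00203), and chr17:4380803-4381502, with no such gene within 50 kb, rose 3.86-fold (adjusted p = 0.000179). Frmd4a, a scaffold of cell polarity, had a peak that rose 3.52-fold (adjusted p = 0.0097). The Frmd4a call was lost without young 1, at an adjusted p of 0.133. With the gene-end share in the model none of the calls in this paragraph remained.

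Decreases with age included peaks at 3 cytokine genes. A peak in Il11 (chr7:4779813-4780512), which encodes a cytokine of the IL-6 family, had 13.6, 9.96, 11.3, 10.9 and 15.1 CPM in aged libraries, against 25.8, 29.6, 25.6 and 17.9 CPM in young ones. All aged values lay below all young ones and the peak fell 1.99-fold (log2 -0.99 ± 0.25, adjusted p = 0.0138). The Il11 call was lost without any 1 of aged 3 or young 1, 2, at an adjusted p of 0.0579 to 0.114. Sipa1, which encodes a GTPase-activating protein for RAP1, had a peak (chr19:5660920-5661619) of 26.5, 22.8, 22.9, 35.6 and 45 CPM in aged and 58.2, 55.7, 76.7 and 45 CPM in young libraries. The highest aged library reached the lowest young one, and the peak fell 1.89-fold (adjusted p = 0.0295). The Sipa1 call was lost without any 1 of aged 1, 2, 3 or young 1, 2, 3, at an adjusted p of 0.0561 to 0.166 (also lost, at an adjusted p of 0.0634 without the batch term). Osm, which encodes the cytokine oncostatin M, had a gene-end peak (chr11:4237260-4237959) of 11.2 ± 4.4 CPM in aged and 23.4 ± 5.57 CPM in young libraries. It was 2.05-fold lower in aged (adjusted p = 0.0282). The Osm call was lost without any 1 of aged 1, 2, 3 or young 1, 3, at an adjusted p of 0.0604 to 0.245 (also lost, at an adjusted p of 0.05001 without the batch term). The remaining 5 decreases that met the naming rule were at gene ends of Kremen1 (a receptor of Dickkopf in WNT signalling), Clcf1 (a cytokine) and Zeb1 (a zinc finger repressor), near Snx9 (a sorting nexin of endocytosis) and 31627 bp from Gm2808, with adjusted p from 0.0246 to 0.0491, and each was lost without 4 or more single libraries. None of these 8 decreases was called with the gene-end share in the model.

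**Figure D1:**
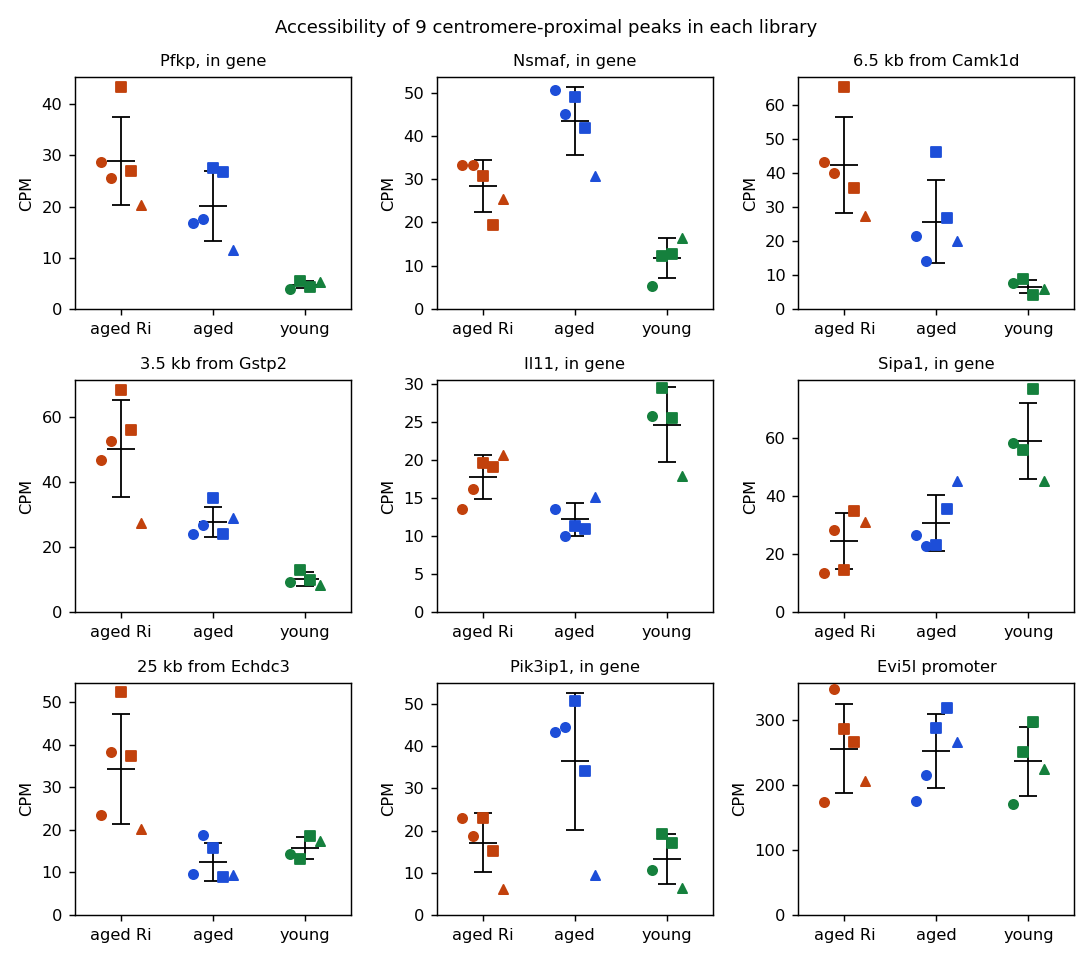
Accessibility (CPM, linear axes) of 9 centromere-proximal peaks in each library of the aged Ri, aged and young groups, with the group mean and SD as bars. Circles, squares and triangles mark sequencing batches 1, 2 and 3. The peak in Pfkp lies between 20.2 and 43.3 CPM in aged Ri, 11.6 and 27.4 CPM in aged and 4.0 and 5.5 CPM in young libraries, while the Evi5l promoter overlaps in all 3 groups.

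Aged LT-HSCs with the RhoA inhibitor differed from aged ones at few peaks. Of 2048 tested, 6 rose and 3 fell with the inhibitor (0.439%, against a background of 0.446% over all peaks, 0.375% higher and 0.0711% lower, and 0.448% at 20 to 40 Mb). An unadjusted p under 0.05 was reached by 197 peaks. None was a promoter: 0 of 388 promoters and 0 of 231 other gene ends were called by edgeR or by DESeq2, with 8 and 15 at an unadjusted p under 0.05, without the block that follows. Over all peaks edgeR called 0.0623% of promoters and 0.185% of other gene ends, so 0 calls lay near the share elsewhere. Libraries of the same number deviated together in these groups, though each such pair also shares a sequencing batch. With the replicate number as a block 38 peaks rose and 46 fell of 1909 tested (4.40%). The background was then 4.42% over all peaks, 2.89% higher and 1.53% lower, and 4.65% at 20 to 40 Mb. They included 3 promoters and 3 other gene ends, all higher (0.779% of 385 and 1.38% of 218, against 0.821% and 1.93% higher over all peaks of those classes). All 9 calls were among these 84. Leaving out 1 library moved the 0.439% by over 1.5 times for 8 of the 10 libraries compared. Leaving out aged Ri 1, 2, 3, 4 and 5 in turn gave 0.193, 0.0481, 0, 0.308 and 0.882%. Leaving out aged 1, 2, 3, 4 and 5 gave 0.0962, 0.0482, 0.103, 0 and 0.618%. With the block, it was 1.07% without pair 3 and 7.34% without pair 5.

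The increase with the lowest adjusted p was 25256 bp from Echdc3 (chr2:6162510-6163209), a gene for an enoyl-CoA hydratase-like protein. Aged Ri libraries had 23.4, 38.3, 52.3, 37.4 and 20.2 CPM, against 9.62, 18.7, 15.8, 8.9 and 9.35 CPM in aged libraries of the same numbers. Each aged Ri library was higher than each aged library, and the peak rose 2.65-fold (log2 1.40 ± 0.25, adjusted p = 0.00615). The Echdc3 call was lost without any 1 of aged Ri 3 or aged 4, at an adjusted p of 0.0596 to 0.0615. Young libraries had 14.2, 13.1, 18.5 and 17.4 CPM, within the range of the aged ones. Cnksr3, a scaffold of RAS and sodium channel signalling, had a peak (chr10:7145560-7146259) of 20.8, 23, 39.4, 17.3 and 19 CPM in aged Ri and 15.2, 10.5, 11.7, 7.53 and 9.35 CPM in aged libraries. The groups did not overlap, and the aged Ri 3 library stood highest. It rose 2.2-fold (adjusted p = 0.0499). The Cnksr3 call was lost without any 1 of aged Ri 1, 2, 3 or aged 1, 2, 3, 4, 5 or young 2, at an adjusted p of 0.0524 to 0.425 (also lost, at an adjusted p of 0.0568 with RLE size factors, 0.0504 without the filter on low counts, 0.116 without the batch term, 0.0515 by DESeq2 and 0.0572 with library-specific offsets). A peak 23592 bp from Klf6 (chr13:5837198-5837897), a zinc finger factor induced early by stress and growth signals, had 20.8, 10.2, 28.4, 18.3 and 13.3 CPM in aged Ri and 5.61, 8.79, 11.7, 4.79 and 8.46 CPM in aged libraries. It rose 2.23-fold (adjusted p = 0.0499). The Klf6 call was lost without any 1 of aged Ri 1, 2, 3, 4 or aged 1, 2, 3, 4 or young 2, at an adjusted p of 0.0537 to 0.369 (also lost, at an adjusted p of 0.0568 with RLE size factors, 0.0504 without the filter on low counts, 0.114 without the batch term, 0.0537 by DESeq2 and 0.0546 with library-specific offsets). Its lowest aged Ri library lay below the highest aged one.

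All 3 peaks that fell with the inhibitor were also called higher in aged than in young cells. Both comparisons share the aged libraries, so an error in those libraries moves them in opposite directions. One of the 3 lies in Pik3ip1 (chr11:3329770-3330469), which encodes an inhibitor of PI3-kinase. It had 22.9, 18.7, 22.9, 15.1 and 6.06 CPM in aged Ri libraries 1 to 5, 43.3, 44.5, 50.8, 34.2 and 9.35 CPM in aged libraries 1 to 5 and 10.7, 19.2, 17 and 6.29 CPM in young libraries 1 to 4. Each aged Ri library was lower than the aged library of its number, and the batch 3 libraries were lowest in every group. It fell 2.08-fold with the inhibitor (log2 -1.06 ± 0.22, adjusted p = 0.0241), and was 2.57-fold higher in aged than in young cells (log2 1.36 ± 0.26, adjusted p = 0.00134). The call with age was lost without young 1, at an adjusted p of 0.0527 (also lost, at an adjusted p of 0.0671 without the batch term). That call was also lost with the gene-end share in the model (adjusted p = 0.34). The call with the inhibitor was lost without any 1 of aged Ri 2, 3, 4 or aged 1, 2, 3, 4, at an adjusted p of 0.0559 to 0.135 (also lost, at an adjusted p of 0.382 without the batch term). The aged Ri and young levels were not called different (log2 0.31 ± 0.27, adjusted p = 0.479), which does not show that they are equal.

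The other 5 called peaks fell outside the naming rule and are given here after their values were seen. A peak in Zeb1 (chr18:5740225-5740924) had 11.9 ± 5.46 CPM in aged Ri and 3.97 ± 2.13 CPM in aged libraries (2.99-fold higher, adjusted p = 0.0237). The Zeb1 call was lost without any 1 of aged Ri 2, 3 or aged 2, 3, 4, at an adjusted p of 0.0518 to 0.273 (also lost, at an adjusted p of 0.0746 without the batch term). A peak 17494 bp from Ramp3, a partner of calcitonin-family receptors, rose, with 65.5 ± 27.7 CPM in aged Ri and 30.1 ± 5.46 CPM in aged libraries (adjusted p = 0.0324). Aged Ri 5 lay below aged 5, at 31.1 against 33.8 CPM, while the other aged Ri libraries lay above all aged ones. The Ramp3 call was lost without any 1 of aged Ri 2, 3 or aged 1, 2, 3, 4, at an adjusted p of 0.085 to 0.241. A further one, 20185 bp from Ttyh1, a chloride channel gene, rose, with 14.1 ± 5.43 CPM in aged Ri and 5.4 ± 1.88 CPM in aged libraries (adjusted p = 0.0366). The Ttyh1 call was lost without any 1 of aged Ri 1, 2, 3 or aged 1, 2, 3, 4, at an adjusted p of 0.0531 to 0.351. The peaks that fell, at chr17:4395913-4396612 and chr10:6310738-6311437, have no protein-coding gene within 50 kb. Their mean counts were 11.9 and 12.9 per library, so each rests on few reads. The first had 4.39 ± 1.69 CPM in aged Ri and 11.6 ± 4.54 CPM in aged libraries, and the second 4.75 ± 2.6 and 11.4 ± 4.19 CPM (adjusted p = 0.0333 and 0.0398). In young libraries they averaged 2.98 ± 1.46 and 4.53 ± 0.802 CPM, 3.58-fold and 2.37-fold lower than in aged ones (adjusted p = 0.00302 and 0.0357). Each call with the inhibitor was lost without any 1 of aged 1 to 4 and aged Ri 1 to 4 (adjusted p up to 0.241 and 0.327), and the second call with age was lost without any 1 of aged 1, 2, 3 or young 1, 2, 3, at an adjusted p of 0.0555 to 0.262. Both calls with age were lost with the gene-end share in the model (adjusted p = 0.196 and 0.496).

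Aged LT-HSCs with the inhibitor differed from young ones at 201 of 2048 peaks, 137 higher and 64 lower (9.81%). The background was 11.5% over all peaks, 7.9% higher and 3.56% lower, and 11.5% at 20 to 40 Mb (663 higher and 333 lower of 8698). This comparison shares its young libraries with the comparison of aged and young cells and its aged Ri libraries with the comparison above, so the values are given side by side and not as independent support. With library-specific offsets the split was 130 higher and 101 lower, and with the gene-end share in the model 15 peaks were called (0.732%), all higher. No share over all peaks is given here for either fit. Without young 1 the direction turned, with 72 higher and 95 lower (8.30%). The other splits that moved the count by over 1.5 times were 66 higher and 15 lower without aged Ri 3 (4.17%), 90 and 26 without young 3 (5.57%) and 87 and 38 without young 2 (6.00%), while 185 and 114 were called without young 4 (14.8%). The fit with the replicate block left out aged Ri 5, all aged libraries and the batch term. It gave 80 higher and 36 lower of 1808 (6.42%, against 7.89% of all peaks, 5.68% higher and 2.21% lower). Gene bodies gave 59 higher and 17 lower of 730 (8.08% and 2.33%, against 9.78% and 3.29% of all peaks of that class). Peaks between genes gave 63 and 29 of 699 (9.01% and 4.15%, against 9.94% and 3.36%), promoters 8 and 9 of 388 (2.06% and 2.32%, against 1.76% and 4.34%) and other gene ends 7 and 9 of 231 (3.03% and 3.90%, against 3.91% and 3.97%). With the block the promoters split into 2 higher and 16 lower of 380. Folds were a median of 2.18 upwards (1.66 to 5.89) and 2.26 downwards (1.55 to 4.28).

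Several of the peaks described for age had their highest level in aged Ri libraries. The Pfkp peak had 28.6, 25.5, 43.3, 27 and 20.2 CPM in aged Ri libraries, 5.73-fold above young ones (log2 2.52 ± 0.29, adjusted p = 1.3e-06), and its difference from aged libraries was not called (log2 0.55 ± 0.22, adjusted p = 0.317). Near Camk1d, aged Ri libraries had 43.2, 40.01, 65.2, 35.6 and 27.5 CPM, 5.89-fold above young ones (adjusted p = 1.3e-06), with a log2 difference from aged ones of 0.72 ± 0.23 (adjusted p = 0.173, 0.00827 with the replicate block). The peak near Gstp2 had 46.9, 52.8, 68.4, 56.1 and 27.5 CPM, 4.83-fold above young ones (adjusted p = 1.15e-06), and the log2 difference from aged ones was 0.80 ± 0.20 (adjusted p = 0.0682, 0.0028 with the block). At all 3 peaks the mean was highest in aged Ri, intermediate in aged and lowest in young libraries. Nsmaf went against that order, at 28.4 ± 5.95 CPM in aged Ri, 43.4 ± 7.86 CPM in aged and 11.7 ± 4.64 CPM in young libraries. Its aged Ri level was 2.41-fold above the young one (adjusted p = 0.00323). The Nsmaf call was lost without young 1, at an adjusted p of 0.0589. That call was also lost with the gene-end share in the model (adjusted p = 0.24). The aged Ri level was 1.54-fold below the aged one (adjusted p = 0.255, 0.0267 with the block).

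On chromosome 6, peaks at Pdk4 and Slc25a13 were higher in aged Ri than in young cells. A peak 13063 bp from Pdk4 (chr6:5509341-5510040) had 61.4, 80.03, 71.7, 37.4 and 32.7 CPM in aged Ri, 52.9, 48.6, 43.6, 26.7 and 16.5 CPM in aged and 12, 16.5, 5.68 and 11.6 CPM in young libraries. It was 4.23-fold higher in aged Ri than in young (adjusted p = 1.35e-05). The Pdk4 promoter peak itself (chr6:5496207-5496906), whose sequence is given above, had 80.7, 88.5, 106, 66.2 and 58.2 CPM in aged Ri, 59.4, 42.8, 74.4, 51.3 and 38.7 CPM in aged and 13.8, 39.2, 24.1 and 37.7 CPM in young libraries. Without the block it was the one promoter called between aged and young cells (1.86-fold higher in aged, adjusted p = 0.0404, named after its value was seen). That call was lost without any 1 of aged 1, 2, 3 or young 1, 2, 3, at an adjusted p of 0.0573 to 0.325 (also lost, at an adjusted p of 0.0579 with the replicate block). Aged Ri libraries were 2.79-fold above young ones (adjusted p = 0.000372). Both promoter calls were lost with the gene-end share in the model (adjusted p = 0.700 with age and 0.0913 between aged Ri and young). All aged Ri and all but 1 of the aged libraries stood above the highest young one. A peak in Slc25a13 (chr6:6188848-6189547), the mitochondrial aspartate-glutamate carrier citrin, averaged 26 ± 8.31 CPM in aged Ri, 15.9 ± 3.75 CPM in aged and 5.69 ± 1.14 CPM in young libraries (4.34-fold, adjusted p = 1.65e-05). The aged Ri calls at the peak 13063 bp from Pdk4 and in Slc25a13 held under every alternative run.

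Promoters were called in both directions. Arhgef18, the exchange factor for RhoA shown above, had a promoter peak (chr8:3392685-3393384) of 18.2, 18.7, 23.9, 25.2 and 19.4 CPM in aged Ri, 24.1, 15.2, 28.9, 15.7 and 19.6 CPM in aged and 6.66, 13.1, 8.52 and 18.9 CPM in young libraries. It was 1.81-fold higher in aged Ri than in young (adjusted p = 0.039). The Arhgef18 call was lost without any 1 of aged Ri 1, 2, 3, 4 or young 1, 2, 3, at an adjusted p of 0.0522 to 0.202 (also lost, at an adjusted p of 0.0917 with the replicate block, 0.0886 without the batch term and 0.0615 with library-specific offsets). The aged and young groups were not called different (adjusted p = 0.0662). Ezr had a promoter peak (chr17:6782450-6783149) of 20.3, 28.9, 23.2, 35.2 and 27.1 CPM in aged Ri, 31.3, 22.8, 27.4, 34.9 and 32.1 CPM in aged and 48, 37.1, 51.1 and 41.6 CPM in young libraries. All aged Ri libraries lay below all young ones, 1.63-fold lower (adjusted p = 0.029). The Ezr call was lost without any 1 of aged Ri 1, 3 or young 1, 3, at an adjusted p of 0.0664 to 0.161 (also lost, at an adjusted p of 0.0815 with the replicate block and 0.0582 without the batch term). The Pold4 promoter (chr19:4231572-4232271) averaged 44.5 ± 13.5 CPM in aged Ri, 49.4 ± 15.4 CPM in aged and 76.2 ± 8.36 CPM in young libraries. It was 1.72-fold lower in aged Ri than in young (adjusted p = 0.017). The Pold4 call was lost without any 1 of aged Ri 3 or young 1, at an adjusted p of 0.0609 to 0.225. Nlrc3, an inhibitory receptor of the NLR family, fell 2.31-fold (adjusted p = 0.00654). Rcor2, a corepressor of the CoREST family, fell 2.26-fold (adjusted p = 0.0182). The Rcor2 call was lost without any 1 of aged Ri 1, 3 or young 1, 3, at an adjusted p of 0.0505 to 0.258 (also lost, at an adjusted p of 0.0857 with the replicate block). Ccdc88b fell 2.12-fold (adjusted p = 0.0085). The Ccdc88b call was lost without young 1, at an adjusted p of 0.12. Slc25a45, a mitochondrial carrier, rose 1.87-fold (adjusted p = 0.00538). Fzd1, a WNT receptor, rose 1.81-fold (adjusted p = 0.0208). The Fzd1 call was lost without any 1 of aged Ri 3 or young 1, 3, at an adjusted p of 0.0588 to 0.141 (also lost, at an adjusted p of 0.125 with the replicate block). Rin1, an effector of RAS, rose 2.0-fold (adjusted p = 0.0222). The Rin1 call was lost without any 1 of aged Ri 3 or young 2, 3, at an adjusted p of 0.0696 to 0.112 (also lost, at an adjusted p of 0.0591 with the replicate block). With the gene-end share in the model none of these promoter calls remained. Except Ezr, Nlrc3 and Rcor2, these promoters were named after their values were seen.

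To cover known regulators, 4 lists of genes with loci in the first 8 Mb were counted peak by peak. Of 23 blood and stem-cell regulators all had a centromere-proximal peak, 89 peaks tested in all. With age 1 of them rose and 4 fell (5 of 89, against a background of 5.72%), 1 rose with the inhibitor (against 0.446%), and 3 were higher and 6 lower in aged Ri than in young cells (9 of 89, against 11.5%). With the replicate block 3 rose and 2 fell with the inhibitor (against 4.42%). The list median was -0.07 with age, 0.05 with the inhibitor and -0.07 between aged Ri and young. Cdk6, a kinase of the G1 phase that stem cells need to leave quiescence, had peaks called in both directions. One (chr5:3432857-3433556) had 16.8, 12.3, 19.9, 13.7 and 8.91 CPM in aged and 4.89, 6.18, 9.94 and 4.84 CPM in young libraries. It was 2.3-fold higher in aged (adjusted p = 0.0165). The Cdk6 call was lost without any 1 of aged 3 or young 1, 2, at an adjusted p of 0.0625 to 0.146. That call was also lost with the gene-end share in the model (adjusted p = 0.477). Another (chr5:3404821-3405520) had 8.85, 5.96, 5.81, 11.1 and 5.26 CPM in aged Ri, 17.6, 10.5, 15.8, 27.4 and 8.91 CPM in aged and 23.1, 17.9, 18.5 and 10.2 CPM in young libraries. It was 2.37-fold lower in aged Ri than in young (adjusted p = 0.00489). That call was lost without young 1 (adjusted p = 0.0625), with the replicate block (0.0855) and with the gene-end share in the model (0.329). Against aged libraries this peak was 2.08-fold lower (adjusted p = 0.0765, 0.00112 with the replicate block). Sox17, a factor of fetal stem cells, had a gene-end peak (chr1:4496062-4496761) of 39.8 ± 6.95 CPM in aged Ri, 26.3 ± 7.27 CPM in aged and 19.7 ± 9.12 CPM in young libraries. It was 2.07-fold higher in aged Ri than in young (adjusted p = 0.00633). The Sox17 call was lost without young 1, at an adjusted p of 0.0501. That call was also lost with the gene-end share in the model (adjusted p = 0.194). Dnmt3a, the de novo DNA methyltransferase, averaged 89 ± 23.8 CPM in aged Ri, 93.9 ± 19.99 CPM in aged and 86.4 ± 10.9 CPM in young libraries at its strongest peak. The adjusted p was 0.812 with age, 0.963 with the inhibitor and 0.947 between aged Ri and young. Cdk6 at chr5:3432857-3433556 was named after its value was seen.

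Of 10 chromatin and nuclear envelope genes, which include Kmt5b and Kmt5c, all had a peak. Of 66 peaks tested 1 rose and 1 fell with age (against a background of 5.72%), and none was called by edgeR with the inhibitor without the block (5 at an unadjusted p under 0.05, 0 by DESeq2, against 0.446%). With the block 1 rose and 1 fell (against 4.42%). Of the same peaks 2 were higher and 1 lower in aged Ri than in young (against 11.5%). The calls made without the block all lay in Arid1b, a subunit of BAF chromatin remodelling complexes. A peak (chr17:5295593-5296292) had 13, 10.2, 8.39, 14.4 and 12.1 CPM in aged Ri, 8.02, 14.1, 9.02, 21.2 and 16.9 CPM in aged and 46.6, 26.1, 29.8 and 12.6 CPM in young libraries. It was 2.43-fold lower in aged Ri than in young (adjusted p = 0.00692). The Arid1b call was lost without young 1, at an adjusted p of 0.139. That call was also lost with the gene-end share in the model (adjusted p = 0.564). Kmt5b, the partner enzyme of Kmt5c, averaged 50.6 ± 19.1 CPM in aged Ri, 45.9 ± 14.9 CPM in aged and 69.1 ± 6.51 CPM in young libraries at its strongest peak, and it was called in no comparison (adjusted p = 0.142 with age). Of 14 cytoskeleton, adhesion and Hippo genes 12 had a peak (Yap1 and Itga8 did not). None of 47 peaks was called by edgeR with age or with the inhibitor (5 and 2 at an unadjusted p under 0.05, 0 by DESeq2, against 5.72% and 0.446% of all peaks), nor with the block. Between aged Ri and young 2 were higher and 2 lower, against 11.5% of all peaks and 0 in the list with the block: Arhgef18 and a body peak of Ppp1r12c, a myosin phosphatase subunit, rose, and Ezr and a body peak of Nf2, the tumour suppressor merlin, fell. All of these calls were lost with the gene-end share in the model (adjusted p of 0.451, 0.52, 0.682 and 0.633 in that order). Of 13 peaks at AP-1, CREB and immediate early genes none was called with age (0 at an unadjusted p under 0.05, 0 by DESeq2) or with the inhibitor (2 and 0), and 1 was higher in aged Ri than in young (against 5.72%, 0.446% and 11.5% of all peaks). With the block 2 fell with age, where 5.79% of all peaks were lower. The peak called between aged Ri and young lies in Crem (chr18:3280757-3281456), a cAMP-responsive factor, at 36.4, 81.7, 67.1, 50.7 and 32.7 CPM in aged Ri, 33.7, 35.1, 41.7, 23.3 and 24 CPM in aged and 27.5, 29.6, 17 and 20.8 CPM in young libraries. It was 2.09-fold higher in aged Ri than in young (adjusted p = 0.00427). That call was lost with the gene-end share in the model (adjusted p = 0.0566). With the replicate block the Crem peak was also higher in aged Ri than in aged (log2 0.73, adjusted p = 0.00803, against 0.139 without the block). Medians of these 3 lists were -0.04, 0.11 and -0.005 with age, -0.10, -0.10 and 0.22 with the inhibitor, and -0.10, -0.06 and 0.15 between aged Ri and young. Ppp1r12c, Nf2, Crem and the Arhgef18 promoter were named after their values were seen.

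Counts summed over the peaks of each chromosome's first 5 Mb of assembled sequence (3 to 8 Mb) gave 19 windows, tested among 525 windows of the genome. With age 3 of the 19 rose and none fell, against 28.2% of all windows called (13% higher and 15.2% lower). The chromosome 6 window had 1405, 1286, 1302, 1126 and 1125 CPM in aged libraries 1 to 5, against 877, 1045, 935 and 1053 CPM in young libraries 1 to 4. The groups did not overlap (log2 0.34 ± 0.09, adjusted p = 0.0191). Chromosome 13 gave 1316 ± 137 CPM in aged and 1103 ± 96 CPM in young libraries (log2 0.26 ± 0.07, adjusted p = 0.0191) and chromosome 15 gave 1309 ± 84 and 1207 ± 52 CPM (log2 0.13 ± 0.04, adjusted p = 0.0207). The calls on chromosomes 6 and 13 were lost without young 1, young 3 or aged 3, and that on chromosome 15 without young 1, 2 or 3 or aged 1 or 3 (highest adjusted p 0.101, 0.1102 and 0.0950). With the inhibitor 0 of 525 windows (0%) were called by edgeR, none of the 19 reached an unadjusted p under 0.05, and DESeq2 called 1 of 525, not among the 19. With the replicate block 8 of 525 were called (1.52%, 0.571% higher and 0.952% lower), none among the 19, of which 7 reached an unadjusted p under 0.05. Between aged Ri and young, 7 of the 19 were called, against 34.3% of all windows (17.7% higher and 16.6% lower): chromosome 13 (log2 0.37 ± 0.07), chromosome 6 (0.35 ± 0.09) and chromosome 15 (0.14 ± 0.04) were higher and chromosomes 11 (-0.23 ± 0.07), 16 (-0.23 ± 0.05), 17 (-0.20 ± 0.05) and 19 (-0.17 ± 0.06) were lower. Without single libraries chromosomes 6 and 17 were lost once (young 1, adjusted p = 0.0584 and 0.0550), chromosome 11 with young 3 or aged Ri 3 (up to 0.0788) and chromosome 19 with young 1 or 3 or aged Ri 1, 3 or 5 (up to 0.147). With the replicate block the call with age was lost on chromosome 15 (adjusted p = 0.0706), and those between aged Ri and young on chromosomes 11, 15 and 19 (0.174, 0.0565 and 0.126).

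**Figure D2:**
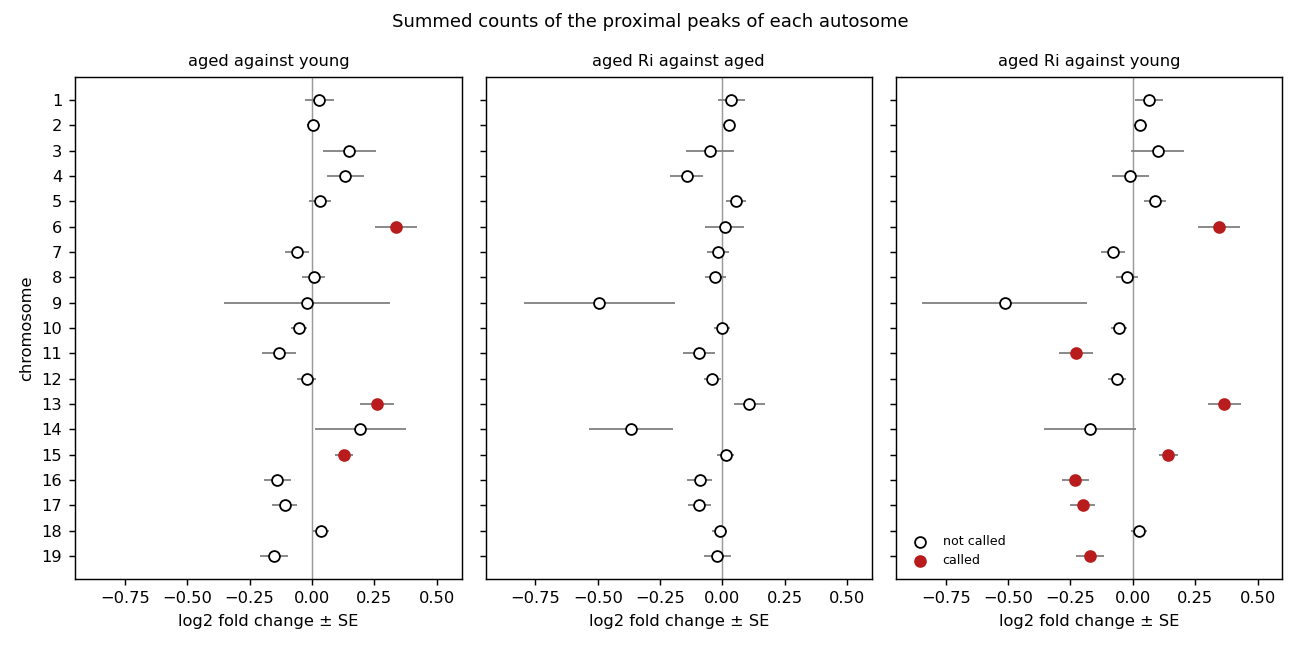
Log2 fold change (points) and SE (bars) of the summed counts at 3 to 8 Mb of each autosome, by age (aged over young), by inhibitor (aged Ri over aged) and by both (aged Ri over young), with windows past an adjusted p of 0.05 in red. Chromosomes 6, 13 and 15 are higher in both comparisons with young cells, and no window is called between aged Ri and aged.

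The first assembled megabase had the lowest median of the distance bins in all 3 comparisons. This is a description with no test of the difference between bins, and the comparisons share libraries. By start in the 3 to 4, 4 to 5, 5 to 6, 6 to 7 and 7 to 8 Mb bins (548, 474, 424, 360 and 242 peaks tested), the median log2 fold change of aged Ri against aged was -0.14, -0.03, -0.001, -0.02 and -0.06, beside -0.03 at 8 to 9 Mb and -0.01 at 20 to 40 Mb. Aged Ri against young gave -0.17, 0.003, -0.03, 0.04 and -0.06, and aged against young gave -0.04, -0.01, 0.02, 0.05 and 0.01. Between aged Ri and aged, 1 of the 548 first peaks was called (0.182%, against 0.446% of all peaks). Without a run of 16 peaks on chromosome 9, described further on, the median was -0.12 (-0.15 against young). In the first bin aged Ri against young gave 18 higher and 24 lower (7.66%, against 11.5% of all peaks). Aged against young gave 12 higher and 2 lower (2.55%, against 5.72%).

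**Figure D3:**
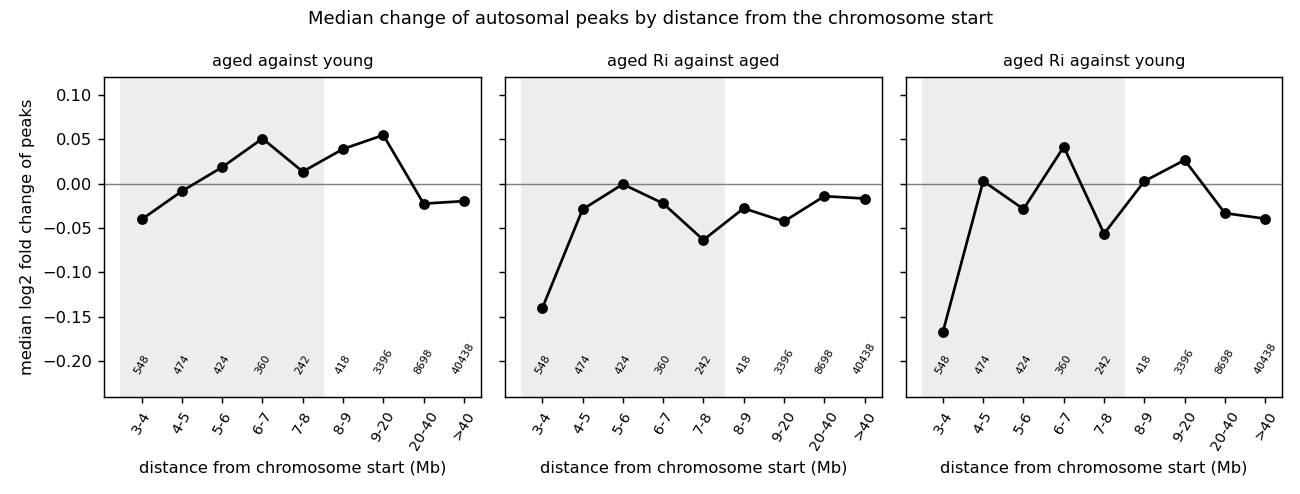
Median log2 fold change of autosomal peaks by start position in Mb bins, in 1 panel each by age (aged over young), by inhibitor (aged Ri over aged) and by both (aged Ri over young), with the number of peaks tested along the bottom and the centromere-proximal bins in grey. The 3 to 4 Mb bin is the lowest of the 9 bins in all 3 panels, at -0.04 by age, -0.14 by inhibitor and -0.17 by both.

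The lowest medians were at peaks far from genes. In the first megabase 45.3% of its 554 peaks lay between genes and 21.1% had no gene within 50 kb, against 10.1 to 15.6% in the other centromere-proximal bins. Its 93 promoters had a median log2 fold change of -0.001 between aged Ri and aged, its gene ends -0.07, its gene bodies -0.09 and its 248 peaks between genes -0.31. The 116 tested peaks with no gene within 50 kb, a class looked at after values were seen, had medians of -0.20 with age, -0.46 with the inhibitor and -0.72 between aged Ri and young, where 1 was higher and 14 lower. Without the chromosome 9 run the medians were -0.23, -0.37 and -0.64. The 5946 autosomal peaks of that kind from 8 Mb on had medians of 0.16, -0.04 and 0.16, with 756 higher and 203 lower between aged Ri and young. Of 16 chromosomes with 10 or more tested peaks in that megabase, 13 had a negative median between aged Ri and aged, from -0.91 on chromosome 9, -0.62 on chromosome 14 and -0.40 on chromosome 16 to 0.06. The count was 7 of 16 with age and 11 of 16 between aged Ri and young.

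Library by library, the median log2(CPM + 0.5) at 3 to 4 Mb less that at 20 to 40 Mb was 0.193, 0.213, -0.023, 0.102 and 0.056 in aged Ri, 0.451, 0.399, 0.150, 0.267 and 0.131 in aged and 0.183, 0.267, 0.494 and 0.144 in young libraries. Each aged Ri library was lower than the aged library of its number. The differences were -0.258, -0.186, -0.173, -0.166 and -0.0745, and the groups overlapped. The same measure without the run of peaks on chromosome 9 fell with library depth. Across 14 libraries it had r = -0.91 and rho = -0.92 with log2 total counts. It had r = -0.83 without young 3 and aged Ri 3, the shallowest and the deepest, and r = -0.96 within batch 2 (6 libraries, with batches 1 and 3 too small). Aged Ri libraries were the deeper in 4 of 5 pairs, with mean totals of 2278388 ± 827453 counts, against 1864900 ± 656562 in aged libraries. In pair 2 the aged Ri library was the shallower, at 1255878 counts against 1566102, and in pair 5 it was deeper by a small margin, at 2403850 against 2401110. In pairs 1, 3 and 4 aged Ri libraries had 1617946, 3176246 and 2938018 counts, against 1153199, 2705576 and 1498512 in aged libraries. Without the run the differences were -0.258, -0.127, -0.193, -0.132 and -0.0667 in pairs 1 to 5. The part of depth in the difference was not tested.

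**Figure D4:**
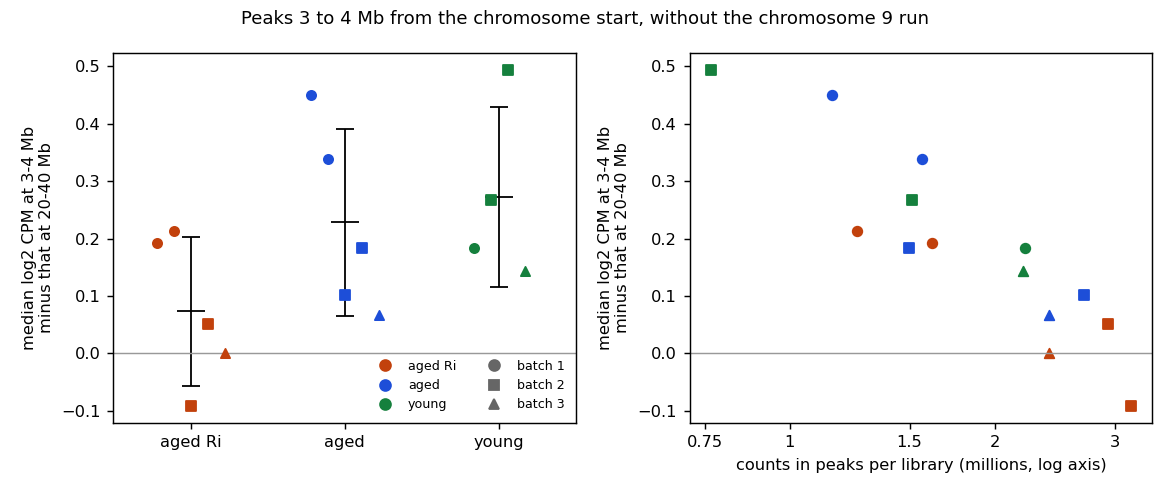
Median log2(CPM + 0.5) of peaks starting at 3 to 4 Mb, without the chromosome 9 run, less that of peaks at 20 to 40 Mb, per library by group (aged Ri, aged, young) and against total counts (log axis). Values fall as totals rise (r = -0.91, n = 14), and young 3, the shallowest library, is the highest.

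One dense run of peaks opened chromosome 9. It comprised 16 peaks between 3001990 and 3032069, with no protein-coding gene within 50 kb and the next peak at 3199760. This stretch of mm10 is known to hold copies of the major satellite repeat of mouse centromeres. How reads that match several places were placed is not given in the sources used here, and its part in these counts was not tested. The first peak (chr9:3001990-3002689) had 99.97, 242, 41.3, 131 and 109 CPM in aged Ri, 201, 381, 161, 138 and 338 CPM in aged and 81.3, 179, 491 and 239 CPM in young libraries. Young 3 was highest of all and aged Ri 3 lowest, and all groups overlapped. Summed over the run, aged Ri libraries had 802, 1450, 339, 892 and 542 CPM (805 ± 421), aged libraries had 1255, 2521, 994, 929 and 1717 CPM (1483 ± 658) and young libraries had 485, 1379, 3089 and 1123 CPM (1519 ± 1112). Aged Ri libraries had 0.639, 0.575, 0.341, 0.960 and 0.316 times the sum of the aged library of their number, lower in 5 of 5. All 16 peaks had a log2 fold change between -0.76 and -1.23 for aged Ri against aged (median -0.93), and 0 were called by edgeR (adjusted p 0.531 to 0.745, 0 at an unadjusted p under 0.05, 0 by DESeq2). With the replicate block all 16 were called lower (adjusted p 2.55e-06 to 0.0176). That count depended on 1 pair: without pair 3 it was 3 of 16 (adjusted p 0.000230 to 0.303), without pair 5 it was 15, and without pair 1, 2 or 4 it stayed 16. Against young, aged Ri peaks of the run had log2 fold changes of -0.64 to -1.17 and aged peaks of -0.24 to 0.25, with 0 called in either.

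Peaks of the run varied together across libraries. Over the 14 libraries the correlation between any 2 of them was 0.688 or more, with a median of 0.93 over 120 pairs, a description of peaks that share their libraries. Of 56219 peaks outside the run, 252 had r above 0.8 with its mean, 9 of them among the other 2032 centromere-proximal peaks tested and 55 among the 181 peaks at 19 to 21 Mb of chromosome 8. The run's log2 sum had r = -0.69 and rho = -0.64 with log2 total counts, r = -0.41 without young 3 and aged Ri 3, and r = -0.86 within batch 2. Pair 4 had the ratio closest to 1 and pair 5, of nearly equal depth, the lowest.

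**Figure D5:**
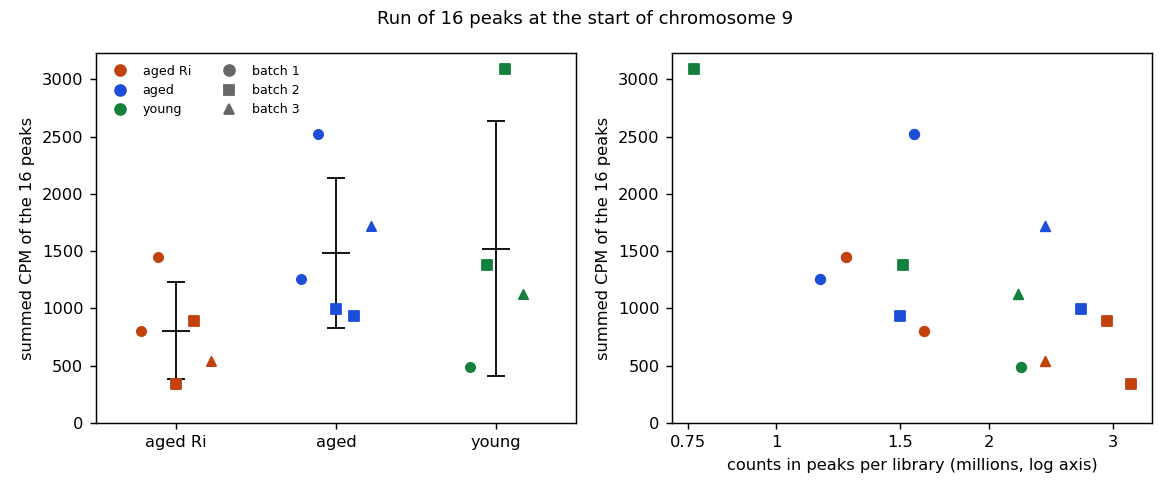
Summed CPM of the 16 peaks of the chromosome 9 run per library by group (aged Ri, aged, young, with mean and SD) and against total counts (log axis). Aged Ri libraries lie between 339 and 1450 CPM, aged ones between 929 and 2521 CPM and young ones between 485 and 3089 CPM.

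Dense runs of 10 or more peaks with gaps of at most 10 kb numbered 137 in the genome, 4 of them centromere-proximal and 22 at 20 to 40 Mb. On chromosome 11, 28 peaks from 3100073 to 3181756 summed to 1116 ± 337 CPM in aged Ri, 1356 ± 387 CPM in aged and 1361 ± 525 CPM in young libraries. Of them 26 had a negative log2 fold change between aged Ri and aged (median -0.32), none was called by edgeR (3 at an unadjusted p under 0.05), and 3 were called lower with the replicate block. The one called between aged Ri and young (chr11:3112350-3113049), 18801 bp from Sfi1, whose product is a centrosomal protein, had 7.29, 10.2, 5.49, 5.75 and 2.43 CPM in aged Ri, 19.2, 42.2, 14.3, 9.58 and 4.9 CPM in aged and 11.5, 16.5, 39.8 and 5.32 CPM in young libraries. It was 2.99-fold lower in aged Ri than in young (adjusted p = 0.0139). The Sfi1 call was lost without any 1 of aged Ri 3 or young 3, at an adjusted p of 0.0662 to 0.0738 (also lost, at an adjusted p of 0.134 with the replicate block and 0.187 without the batch term). That call was also lost with the gene-end share in the model (adjusted p = 0.306). Against aged libraries the peak was 2.81-fold lower (adjusted p = 0.0724, 9.67e-05 with the block). Runs on chromosomes 16 (12 peaks from 4541600) and 19 (11 peaks from 4181590) had medians of 0.05 and -0.01 between aged Ri and aged. Of the 46 centromere-proximal peaks that fell with the block, 32 started at 3 to 4 Mb, 16 of them in the chromosome 9 run. The 32 were 6.35% of 504 tested in that megabase, against 1.53% lower over all peaks. The 16 outside the run were 3.28% of 488. They lay on chromosomes 11 (4), 16 (3), 4, 5 and 12 (2 each), and 2, 8 and 14 (1 each). In the same megabase 8 peaks rose (1.59%, against 2.89% over all peaks). Without pair 3 the block called 6 lower and 0 higher in that megabase outside the chromosome 9 run. Without the chromosome 9 run the block called 38 higher and 30 lower (3.59%, against 4.42% of all peaks).

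As a share of all autosomal counts, centromere-proximal peaks held 4.30, 4.36, 4.16, 4.29 and 4.10% in aged Ri (4.24 ± 0.107), 4.46, 4.54, 4.35, 4.32 and 4.35% in aged (4.40 ± 0.092) and 4.15, 4.36, 4.71 and 4.27% in young libraries (4.38 ± 0.241). Aged Ri less aged was -0.163 percentage points, with -0.173, -0.114 and -0.243 in batches 1, 2 and 3, and -0.0939 without the chromosome 9 run. Aged less young was 0.029, with 0.347, -0.199 and 0.071 in the batches, so its direction was not shared by them. Aged Ri less young was -0.135, with 0.174, -0.313 and -0.172. The share fell with depth across the 14 libraries (r = -0.78, rho = -0.71, r = -0.54 without young 3 and aged Ri 3, and r = -0.88 within batch 2). No p is given for these shares, and the part of depth in them was not tested.

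The 8 Mb limit has peaks close on either side. The last peak inside it on each of 19 chromosomes had a mean count of 8.0 to 50.8 (median 21.5) and the first outside it 9.29 to 138 (median 17.9). Inside, the log2 fold changes had medians of 0.35 with age (-0.54 to 0.89), -0.17 with the inhibitor (-0.94 to 0.65) and 0.27 between aged Ri and young (-1.05 to 0.85). Outside, they were 0.19 (-0.34 to 1.01), -0.01 (-0.41 to 0.67) and 0.17 (-0.40 to 1.28).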

How the data were processed

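The authors deposited raw read counts for 57289 consensus peaks of 700 bp in 14 libraries, on mm10. The submitters' processing notes name SAMtools 1.14, R 4.2.0 and featureCounts; the aligner, the peak caller and the treatment of duplicates and of the transposase offset are not given in the sources used here. The members and gene lists were chosen with earlier results of these data known. Counts were fitted with edgeR 4.0.16 (quasi-likelihood test, TMM, R 4.3.3) on all libraries, with group and sequencing batch as terms, after edgeR's filter on low counts, and p-values were adjusted by Benjamini-Hochberg over all 56235 peaks tested, with a threshold of 0.05. DESeq2 1.42.0, other scalings, a gene-end covariate, a replicate block and leaving out each library were alternatives. The replicate block took only the groups compared and had no batch term. It kept only replicate numbers found in both groups, so comparisons with young libraries left out aged 5 or aged Ri 5. CPM of the marker genes are counts scaled to a library's total. CPM of peaks, runs and windows are counts scaled to that total after TMM adjustment.

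The replicate numbers were taken to pair aged Ri with aged libraries, which the labels do not state. Over the 25903 peaks that average 20 or more counts, deviations of same-numbered libraries from their group means had correlations of 0.365, 0.137, 0.645, 0.276 and 0.544. Each such pair also shares a sequencing batch, which was not taken out of the deviations, so these values cannot tell pairing from a shared batch. Pairs with young libraries did not pass that check. The labels do not say that libraries came from separate mice, so p-values measure the spread between libraries, which may be technical. Peaks named were, per comparison, up to 10 called in each direction with the largest change, a mean count of at least 20 and the same direction in each of 3 batches, the 10 with the highest CPM (1 of them is not reported here), the first peak of each autosome, peaks of listed genes, and peaks beside the 8 Mb limit.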

Additional observations from a re-analysis of the deposited data

Results flagged for a closer look

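In 7 of 198 groups of libraries tested, 1 library lay apart from the rest of its group by Dixon's 95% criterion, where chance flags about 1 in 20. In the first window of chromosome 5, young 1 had 968 CPM, against 1116 to 1138 CPM in the other young libraries. In the first window of chromosome 11, young 3 had 6174 CPM, against 4976 to 5113 CPM. In Cnksr3, aged Ri 3 had 39.4 CPM, against 17.3 to 23.0 CPM in the other aged Ri libraries. At the Osm gene end, aged Ri 4 had 17.6 CPM, against 8.89 to 11.1 CPM. At the Kremen1 gene end, aged 5 had 53.0 CPM, against 15.4 to 25.3 CPM in the other aged libraries. At the Fkbp2 promoter, young 3 had 248 CPM, against 186 to 190.1 CPM. In Peg3, young 4 had 13.5 CPM, against 7.10 to 7.99 CPM in the other young libraries. The library that lay apart was on the side of the call for Cnksr3 and for the chromosome 11 window between aged Ri and young, which was lost without young 3 (Cnksr3 between aged Ri and aged was lost without aged Ri 3). It lay against the call for Peg3, Kremen1 and Osm.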

How the results depend on the processing

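The share of centromere-proximal peaks called between aged and young was 10.1% with the replicate block, 2.39% without the batch term and 0.146% with the gene-end share in the model. Between aged Ri and aged it was 4.40% with the block and 0.0488% without the batch term. Between aged Ri and young it was 6.42% with the block, 6.15% without the batch term and 0.732% with the gene-end share. Of these alternatives, only the block has its share over all peaks given above. Of the 19 first windows, DESeq2 called 5 with age and the block called 4 between aged Ri and young. Leaving out 1 library gave 1.59 to 10.3% called, medians of -0.036 to 0.033, 0 to 6 windows and share differences of -0.0448 to 0.142 points with age, 0 to 0.895%, -0.0759 to -0.00763, 0 windows and -0.193 to -0.129 points with the inhibitor, and 4.17 to 14.8%, -0.0624 to -0.0245, 4 to 8 windows and -0.208 to -0.0215 points between aged Ri and young. With the block, leaving out 1 pair gave 1.07 to 7.34% and 3 to 16 peaks of the chromosome 9 run, an alternative chosen after seeing the data, as was leaving out that run. The cause of these shifts was not tested. Between aged and young, calls split 86 higher and 18 lower, but 65 and 101 with the block, and between aged Ri and young 137 and 64, but 72 and 95 without young 1. The median and the share difference with age, both near 0, changed sign. No named call changed sign. Of the named calls, 3 of 28 with age, 0 of 5 with the inhibitor and 6 of 43 between aged Ri and young held under every alternative. With a median mean count of 20 per peak, single peaks with few counts carry wide errors.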
